A study of Drosophila melanogaster with 3 samples.

Results

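The chemosensory genes of Drosophila melanogaster described here were the 230 protein-coding genes whose symbol begins with Or, Gr, Ir or Obp followed by a digit, of 13945 protein-coding genes on the main chromosome arms. They comprised 59 odorant receptor genes (Or), 60 gustatory receptor genes (Gr), 60 ionotropic receptor genes (Ir) and 51 odorant binding protein genes (Obp). They were picked by name, not by any measured value. Binding of Aef1, a C2H2 zinc finger protein known to bind repeats of CAACAA, had been mapped by chromatin immunoprecipitation and sequencing. The chromatin came from whole embryos aged 0 to 24 h, of a strain with a transgenic insertion that expresses Aef1 fused to enhanced green fluorescent protein, and it was pulled down with an antibody to that tag. The 3 biological replicates all carried this fusion and formed 1 group. No untagged strain, input or second condition was analysed here, and the labels do not name the promoter that drives the fusion.

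Odorant receptors are membrane proteins that work as ion channels together with the co-receptor Orco. Gustatory receptors detect sugars, bitter compounds and, in one pair, CO2. Ionotropic receptors descend from glutamate receptors and need co-receptors such as Ir25a and Ir8a, while odorant binding proteins are small secreted proteins of the fluid that bathes sensory hairs. Most receptors are made in a few sensory neurons each, in the larval and adult sense organs, and many of the genes lie in arrays of recent duplicates. The chromatin was of the whole embryo, so a site used in few cells and a weak site in many cells cannot be told apart.

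For each replicate the authors deposited a long ranked list of peaks and a short list filtered on the irreproducible discovery rate (IDR, a measure of how poorly a peak's rank repeats between a pair of peak calls) at about 0.01. The filtered lists, called thresholded here, held 3495, 3126 and 2942 peaks in replicates 1, 2 and 3, and the ranked lists 29199, 43924 and 49093. A gene was counted as bound where a peak summit lay within 500 bp of one of its annotated transcript starts. Reads behind the lists were not analysed here, so depth is unknown, and the intervals given for counts above 0 are exact Clopper-Pearson 95% intervals. For a count of 0 the limit given is the share that 3 counts would make, which is 1-sided and so lies below the upper end of the exact interval. Both cover counting error only. Genes in arrays or with a common start share their surroundings and are not independent of each other.

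The reference sequence is printed for 4 places that the counts below turn on. Obp28a and Obp99b are shown as the members with a thresholded summit, and Ir67c and the pair Gr10a and Or10a as members with a ranked summit between genes in all 3 replicates. Each stretch is 151 bases centred on the summit (the median of the 3 replicates' ranked summits for Ir67c and for Gr10a with Or10a), on dm6 from RefSeq and on the strand of the gene. The stretch of Obp28a is chr2L:7497031-7497181, that of Obp99b chr3R:29717025-29717175, that of Ir67c chr3L:10434285-10434435 and that of Gr10a and Or10a chrX:11417768-11417918, all 4 on the minus strand. The Ir67c stretch leaves out the summit of replicate 3, at position 10434456. It also leaves out the summit of the lists for the whole series (described below), at position 10434452. Capitals mark CAACAA on either strand (TTGTTG on the strand shown) and, in Obp99b, the word ATGGCGCCA.
Obp28a: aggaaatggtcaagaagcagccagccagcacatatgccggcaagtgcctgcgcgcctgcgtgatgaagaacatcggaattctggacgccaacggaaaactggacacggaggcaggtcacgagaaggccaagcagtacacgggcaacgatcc
Obp99b: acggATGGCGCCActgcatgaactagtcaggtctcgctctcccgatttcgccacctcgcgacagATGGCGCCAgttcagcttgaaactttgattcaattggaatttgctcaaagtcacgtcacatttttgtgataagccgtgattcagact
Ir67c: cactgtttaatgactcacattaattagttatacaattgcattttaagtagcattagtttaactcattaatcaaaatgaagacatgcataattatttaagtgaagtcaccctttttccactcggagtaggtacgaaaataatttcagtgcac
Gr10a and Or10a: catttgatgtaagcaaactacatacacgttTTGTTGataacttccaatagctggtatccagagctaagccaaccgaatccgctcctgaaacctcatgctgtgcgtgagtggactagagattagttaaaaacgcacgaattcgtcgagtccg

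The stretch at Obp28a lay wholly in coding sequence and was the richest of the 4 in G and C, at 57.6%. The stretches at Obp99b (49.0% G and C), Ir67c (30.5%) and Gr10a with Or10a (44.4%) lay between genes. Of these 4, CAACAA stood in the last, 1 time. Over all 8 distinct summit stretches examined at members it stood in 3, the others being those of Gr21a and Gr64e, which are in exons outside the coding sequence and are not printed. The 8 also took in Ir62a and Ir93a. Obp46a and Or59a, which had a ranked summit in every replicate too, were left out. The share of such stretches with CAACAA over all summits is not given here, so the count has no background. The word ATGGCGCCA, picked out after the Obp99b stretch was read, stood 2 times in it and in none of the other summit stretches examined at members. One of its copies forms part of AGATGGCGC, a form of the core word of the insulator protein CTCF.

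Aef1-eGFP marked almost no start of a chemosensory gene in the thresholded lists. A summit lay within 500 bp of a start for 2 of the 230 genes in replicate 1 and for 0 in replicates 2 and 3. These were 0.87%, 0% and 0% of the genes (mean 0.29% ± 0.502, SD, n = 3), where the shares of all protein-coding genes were 16.6%, 15% and 14.6%. In all 3 replicates together, 0 of 230 were bound, for which the 3-count limit is 1.3%, beside 11.3% of all genes. Bound in at least 1 replicate were 2 of 230, or 0.87% (interval 0.105% to 3.11%), beside 19.8% of all genes. None of the 59 Or, 60 Gr and 60 Ir genes was bound in any replicate, and the 2 bound genes, Obp28a and Obp99b, were both odorant binding protein genes. The families are small, and the 3-count limit is 5.08% for Or and 5% for Gr and for Ir. The 70 genes of the Cpr family, which encode cuticle proteins and form another large family of tissue genes in arrays, also had 0 bound in each replicate.

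**Figure D1:**
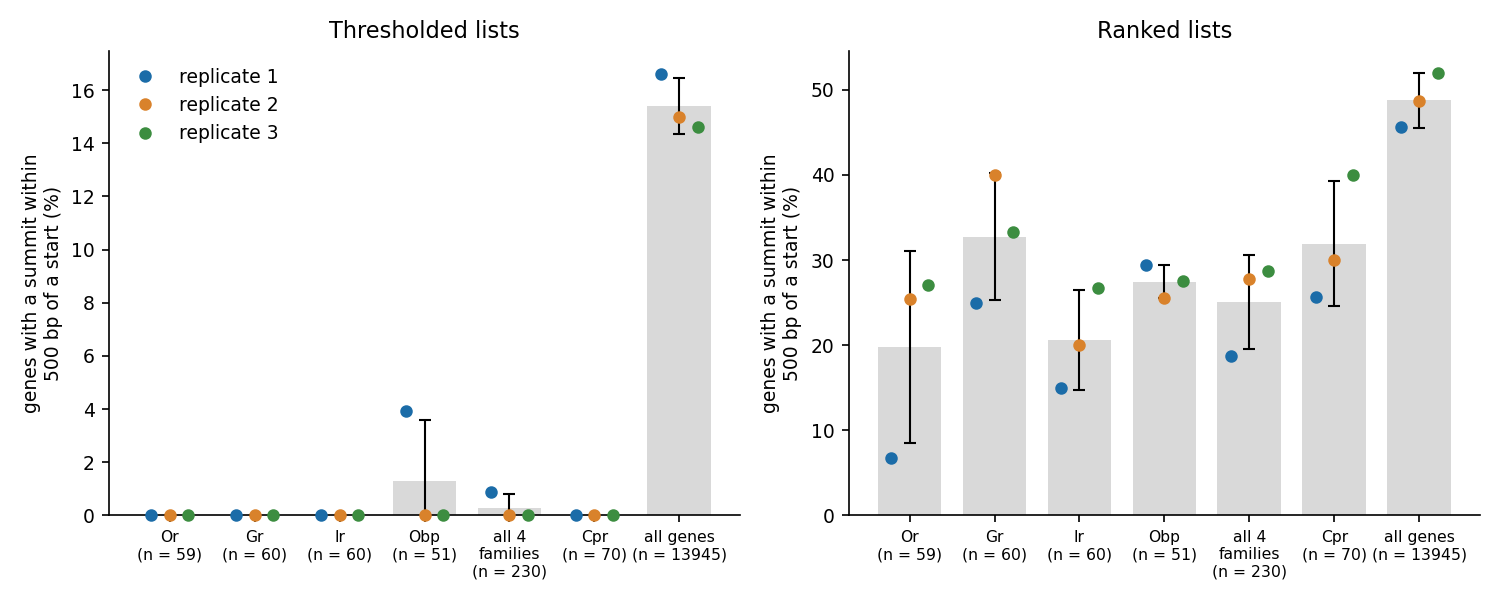
Share of genes (%) with a peak summit within 500 bp of a transcript start, in the thresholded lists (left) and the ranked lists (right), for the 4 chemosensory families, all 230 genes of them, the 70 Cpr genes and all 13945 genes. Points are the 3 replicates, bars their means and error bars 1 SD (the axis starts at 0). The left panel shows points above 0 for replicate 1 of Obp and of the 4 families together and for all genes, and the right panel shows each family below all genes in each replicate.

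Obp99b encodes an odorant binding protein that is also known from the fat body of the head, and it spans 3R:29716254-29716896 on the minus strand. Its thresholded summit in replicate 1 was at position 29717100, 204 bp upstream of the start, with a signal of 79.7 at rank 1537 of 3495. In the ranked lists a summit stood at this place in every replicate, 204, 199 and 234 bp upstream of the start in replicates 1, 2 and 3. Its signals there were 79.7, 42.5 and 27.4, which put it among the strongest 5.42%, 6.67% and 11.6% of each ranked list. The IDR was 8.89e-05 in replicate 1, 0.0645 in replicate 2 and 0.353 in replicate 3, so it was below 0.05 in replicate 1 alone. Its summit was the best placed of all members on the mean of these ranks (7.9%). The start of Obp99b was the nearest protein-coding start to the summit.

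The neighbours of Obp99b are Obp99d and Dup99B on one side and a run of genes from CG15506 to Kul on the other. Within 16 kb to either side of its start the thresholded lists held 1, 1 and 0 summits in replicates 1, 2 and 3. The single one of replicate 2 was in the coding sequence of Pcd, 6402 bp away. The ranked lists held 11, 19 and 16 summits in the same stretch.

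**Figure D2:**
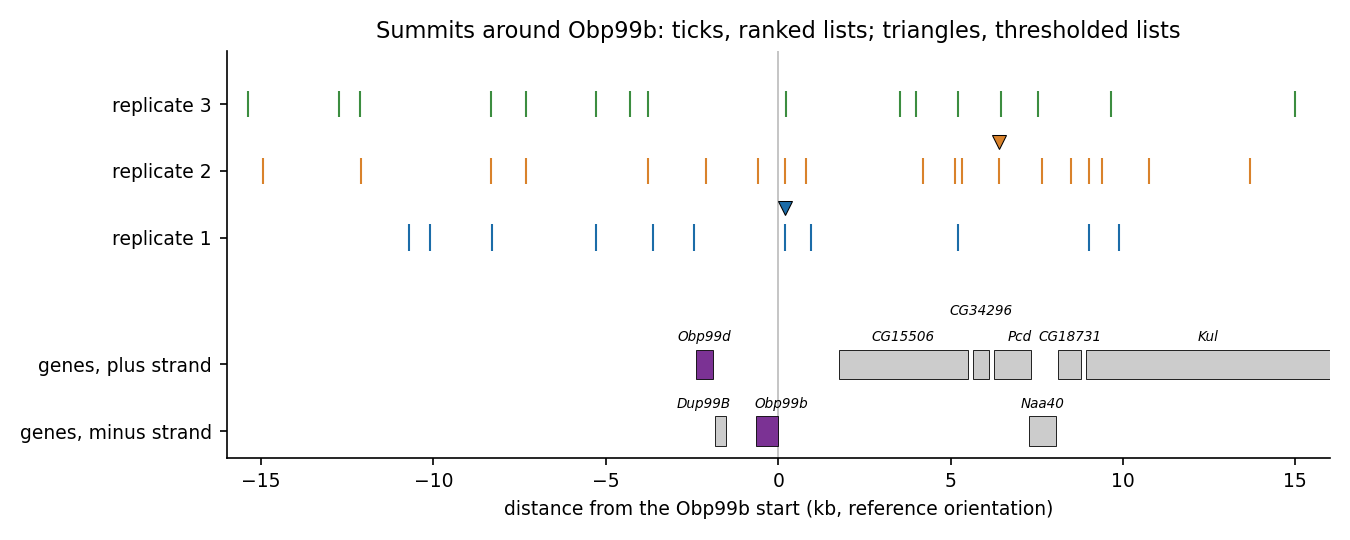
Genes and summits within 16 kb of the Obp99b start, by distance in kb in the orientation of the reference (Obp99b is on the minus strand, so its upstream side is to the right). Purple boxes are Obp genes, grey boxes other genes, ticks summits of the ranked lists and triangles summits of the thresholded lists. Ticks line up in the 3 replicates just right of 0, and the triangle there belongs to replicate 1.

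Obp28a encodes an odorant binding protein abundant in the antenna and spans 2L:7496791-7497365 on the minus strand. Its thresholded summit in replicate 1 was at position 7497106, 259 bp downstream of the start and in the coding sequence. The signal was 31.9, at rank 3445 of 3495, near the end of the list. In the ranked lists it stood at 18.3% from the top with an IDR of 0.00559 in replicate 1, and at 51% with an IDR of 0.881 in replicate 3 (signal 15.2, 229 bp downstream). Replicate 2 had no ranked summit within 500 bp, and its nearest thresholded summit was 2810 bp away in an intron of Ziz. Neither of the bound members had a thresholded summit in more than 1 replicate.

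Ranked summits, which take in the strong peaks as well as weak signal, were also sparser at chemosensory genes than over all genes. Of all genes 19.8% had a thresholded summit in at least 1 replicate, so the shares of all genes given here are not of weak signal alone. Shares without such genes were not counted. A ranked summit lay within 500 bp of a start for 43, 64 and 66 members, that is 18.7%, 27.8% and 28.7% (mean 25.1% ± 5.54, SD, n = 3), beside 45.6%, 48.7% and 52% of all genes. The difference from all genes was larger than the spread between replicates: the highest member share, 28.7%, lay below the lowest share of all genes, 45.6%. In all 3 replicates a ranked summit was present for 10 members, or 4.35% (interval 2.1% to 7.85%), beside 30.4% of all genes. In at least 1 replicate it was present for 113 members, or 49.1% (interval 42.5% to 55.8%), beside 68.9%. Ranked summits at members seldom recurred: 63 members had one in 1 replicate, 40 in 2 and 10 in 3. Of members with any, 8.85% thus had it in all 3. Over all genes, strong peaks included, that share was 44.2%.

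Each family had 2 or 3 genes with such repeated summits, too few to tell the families apart or to show them alike. A ranked summit in all 3 replicates was present for 2 of 59 Or genes (3.39%), 3 of 60 Gr genes (5%), 3 of 60 Ir genes (5%) and 2 of 51 Obp genes (3.92%). Their exact intervals overlapped, with upper bounds from 11.7% for Or to 13.9% for Gr and Ir. In at least 1 replicate a ranked summit was present for 42.4% of Or (interval 29.6% to 55.9%) and 65% of Gr genes (51.6% to 76.9%). For Ir genes the share was 40% (27.6% to 53.5%) and for Obp genes 49% (34.8% to 63.4%). The Or genes varied most between replicates, with 4, 15 and 16 genes in replicates 1, 2 and 3, while the Obp genes had 15, 13 and 14. Of the 70 Cpr genes, 6 (8.57%) had a ranked summit in all 3 replicates.

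**Figure D3:**
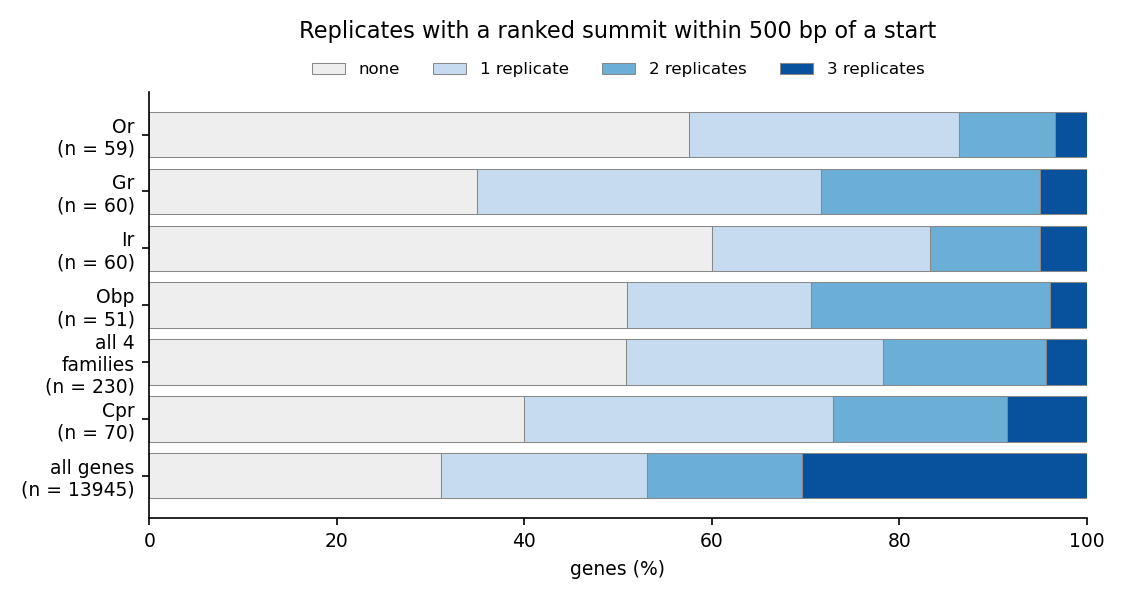
Share of genes (%) with a ranked summit within 500 bp of a start in none, 1, 2 or 3 of the replicates, for the 4 chemosensory families, all 230 genes of them, the Cpr genes and all 13945 genes. The darkest segment, 3 replicates, runs from 3.39% for Or to 5% for Gr and Ir, and is 30.4% for all genes.

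The ranked summits at members also stood low in their lists, beside a background of all genes that holds the strong peaks too. The best ranked summit at a member stood at a median of 66.2%, 46.3% and 51.4% from the top of its list in replicates 1, 2 and 3, beside 19.0%, 17.9% and 17.5% for all genes with a ranked summit. The median IDR of these summits was 0.82, 0.877 and 0.764 for members and 0.173, 0.45 and 0.461 for all genes. For the Cpr genes the median ranks were 74.6%, 37.8% and 35.5%, and the median IDRs 0.82, 0.657 and 0.768. An IDR of 0.05 or less was reached by 3, 1 and 2 members in replicates 1, 2 and 3 on their best summit. These were 6.98%, 1.56% and 3.03% of members with a ranked summit, beside 43.5%, 35.7% and 33.9% of all genes with one. Taking every ranked summit within 500 bp of a start, 7 members reached it, each in 1 replicate only. In replicate 1 these were Obp99b, Obp28a, Ir60e (IDR 0.0428, 310 bp upstream) and Obp47a (IDR 0.0427, 313 bp downstream, in coding sequence). In replicate 2 it was Ir67c, at 0.0228. In replicate 3 these were Gr21a, at 0.0267, and Ir60b, at 0.0291. The Ir60b summit was among the weaker peaks of its list, with a signal of 9.81 at 89.9% from the top. That of Obp47a stood at 52.1% in replicate 1. At Ir60b and Ir60e the summit was nearer to the start of another gene, 2 bp from Letm1 and 12 bp from CG13585.

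The ranked summits showed no rise at the starts of chemosensory genes. In bins of 500 bp around the canonical start, the bin centred on the start held 9.13, 12.6 and 15.7 summits per 100 members in replicates 1, 2 and 3. The 18 bins from 1 to 5 kb to either side held a mean of 10.4, 16.9 and 18.4, and ranged from 6.96 to 13.9 in replicate 1, from 13 to 20.9 in replicate 2 and from 12.2 to 22.6 in replicate 3. So the start bin of members was within the range of its surroundings in replicates 1 and 3 and below it in replicate 2. Over all genes the start bin held 30.3, 31.2 and 33.8 summits per 100 starts, above the 12.4, 17.1 and 19.6 of the outer bins. In the thresholded lists the start bin held 0.435, 0 and 0 summits per 100 members, and the outer bins a mean of 0.942, 0.725 and 0.7. Over all genes the thresholded start bin held 11.6, 10.2 and 10.2, and for the Cpr genes it held 0 in each replicate. Of the pairs of a ranked summit and a start within 500 bp, 47.9%, 45.1% and 41.9% had the summit upstream of the member's start, beside 67.2%, 62.6% and 60.1% over all genes.

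**Figure D4:**
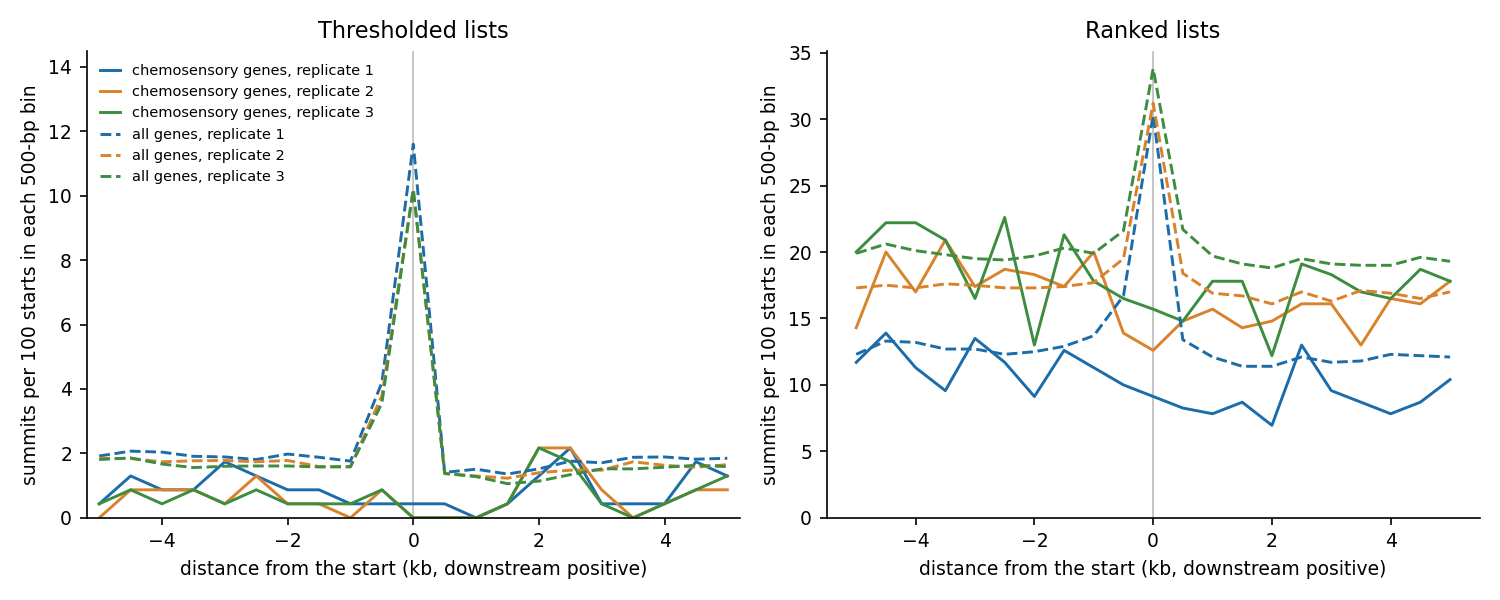
Summits per 100 starts in 500-bp bins from 5 kb upstream to 5 kb downstream of the canonical start, in the thresholded lists (left) and the ranked lists (right), by replicate; solid lines are the 230 chemosensory genes and dashed lines all genes. The dashed lines peak at 0, at 10.2 to 11.6 on the left and 30.3 to 33.8 on the right, and the solid lines show no peak there.

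Among the 10 members with a ranked summit in all 3 replicates, Ir67c followed Obp99b on the mean rank. Ir67c, an ionotropic receptor gene at 3L:10432384-10434105 on the minus strand, had signals of 31.5, 32.2 and 32.4 in replicates 1, 2 and 3. Its summits lay 255, 246 and 351 bp upstream of the start, at 18.6%, 9.47% and 8.56% from the top, with IDRs of 0.0902, 0.0228 and 0.114. By rank alone it was better placed in replicates 2 and 3 (4159 and 4203) than in replicate 1 (5420), the reverse of Obp99b. Its signals were alike in the 3 lists, which differ in length, and its IDR was highest in replicate 3. Gr21a, which forms the CO2 receptor together with Gr63a, had summits 274, 330 and 193 bp upstream of its nearest start, in an exon outside the coding sequence. Its signals were 20.2, 35.8 and 27.9 and its IDRs 0.82, 0.0684 and 0.0267. It stood at 40.6% from the top in replicate 1, lower than the 8.23% and 11.2% of replicates 2 and 3. Gr63a, its partner, had ranked summits in replicates 1 and 3 only, with IDRs of 0.82 and 0.764.

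Gr10a and Or10a are annotated on the same span, X:11413467-11417422 on the minus strand, with a common start, and count as 2 of the 10 with the same summits. Those summits lay 421, 430 and 419 bp upstream, with signals of 23.6, 27.0 and 20.5 and IDRs of 0.44, 0.143 and 0.586. The other members with a ranked summit in all 3 replicates were Ir62a, Obp46a, Ir93a, Gr64e and Or59a, with mean ranks from 43.2% for Ir62a to 78.2% for Or59a. Ir93a, a co-receptor for temperature and humidity sensing, had IDRs of 0.82, 0.645 and 0.746, with summits 107, 143 and 63 bp downstream of its start. Gr64e, a taste receptor of the sugar clade, had IDRs of 0.82, 0.62 and 0.881. At Or59a the summits lay 136 bp upstream, 41 bp downstream and 166 bp upstream, at 95% from the top of the list in replicate 2.

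**Figure D5:**
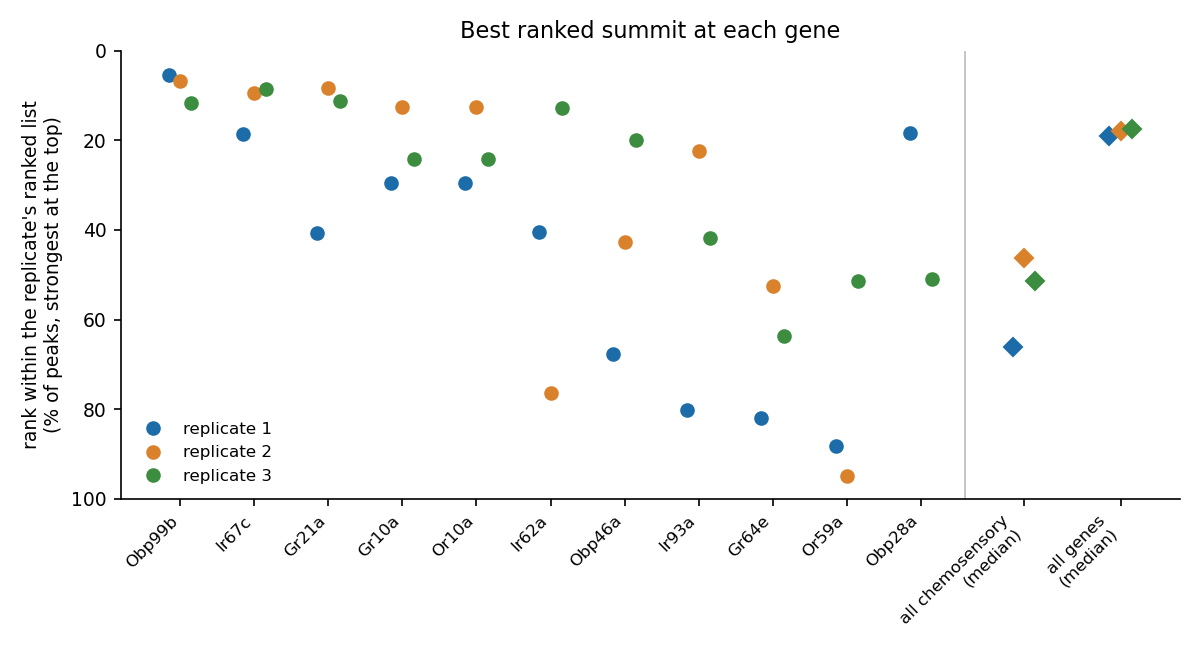
Rank of the best ranked summit within 500 bp of a start, as % of the peaks in each replicate's ranked list with the strongest at the top, for the 10 members with such a summit in all 3 replicates and for Obp28a, which has none in replicate 2. Diamonds are medians over all members and over all genes with a ranked summit. Obp99b and Ir67c stand between 5.42% and 18.6% in each list, and the medians of all members lie lower (46.3% to 66.2%) than those of all genes (17.5% to 19.0%).

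By role, the well-known members ranged from 9 of 9 sugar receptors to 2 of 7 odorant receptors with a ranked summit in at least 1 replicate. Over all genes the shares were 68.9% in at least 1 replicate and 30.4% in all 3, and the roles hold few genes each. Gr64b to Gr64e, Gr8a, Gr47a, Gr93a, Ir64a, Ir75a and Ir92a were added to the planned list of well-known members. All 4 ionotropic co-receptors (Ir25a, Ir8a, Ir76b and Ir93a) had a ranked summit in at least 1 replicate, and Ir93a alone had it in 3. Ir25a, the broadest of them, had one in replicate 1, at 97.3% of the list. All 9 sugar receptors examined (Gr5a, Gr43a, Gr61a and Gr64a to Gr64f) had a ranked summit in some replicate, with Gr64e alone in 3. Gr64b and Gr64c had the same summits, at 66.2% in replicate 1 and 35.3% in replicate 2. The summits of Gr64d, in replicates 2 and 3, also counted for Gr64e, so the 9 are not independent. Of 6 bitter receptors, 4 had a ranked summit in some replicate and 0 in 3, and the widely used bitter co-receptors Gr33a and Gr32a had none. Gr8a, a receptor for the plant amino acid canavanine, was the best placed of these, at 11.2% of the list in replicate 3 with an IDR of 0.144. Gr28b, a receptor for warmth and light, had ranked summits in replicates 2 and 3, at 14.7% and 36.6%.

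Of 7 odorant receptors examined, Or47b and Or43b had a ranked summit, each in replicate 2 only, and Or42a, Or42b, Or67d, Or22a and Or56a had none. Or67d, the receptor for the male pheromone cis-vaccenyl acetate, lay 79615, 281551 and 89791 bp from the nearest thresholded summit in replicates 1, 2 and 3. Of 6 ionotropic receptors with a known ligand or stimulus, Ir84a and Ir64a had a ranked summit and Ir40a, Ir21a, Ir75a and Ir92a had none. Ir40a, which serves humidity sensing, lay 330713, 330712 and 298950 bp from the nearest thresholded summit. Of 6 odorant binding proteins, 5 had a ranked summit in some replicate and Obp83a had none. Obp83b, the neighbour of Obp83a, had ranked summits in replicates 2 and 3, at IDRs of 0.604 and 0.707.

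Members lay farther from Aef1-eGFP sites than genes in general. The median distance from a member to the nearest thresholded summit was 17518, 24606 and 23764 bp in replicates 1, 2 and 3, beside 8924, 10695 and 11389 bp over all genes. A summit within 5 kb was present for 34, 23 and 20 members (14.8%, 10% and 8.7%), beside 36.6%, 33.1% and 32% of all genes. The Or genes were the farthest of the families, with medians of 38936, 41475 and 43126 bp. Gr genes had medians of 14278, 19014 and 14824 bp, Ir genes of 13530, 25262 and 22908 bp, and Obp genes of 13842, 15645 and 15711 bp. The Cpr genes also lay farther than genes in general, with medians of 15965, 16755 and 16829 bp. A summit within 5 kb was present for 17.1%, 12.9% and 17.1% of them.

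A thresholded summit came within 2500 bp of a start in all 3 replicates for 9 members (3.91%), beside 18.2% of all genes. They are named here after their values were seen. For 8 of them the summit was nearer to the start of another gene. The nearest was at Or88a, 794, 698 and 744 bp upstream of it and 330, 426 and 380 bp upstream of CG12402. The others were Gr97a (next to CG5521), Obp84a (CG1227), Or85f (CG34117), Obp46a (CG12909), Obp59a (robo1, the axon guidance receptor), Ir68b (yps, an RNA-binding protein of the oocyte) and Ir48c (ths, a ligand of the FGF receptor). Gr89a was the member for which no other start was nearer. Its summit lay 1379, 1374 and 1377 bp downstream of the start, past the end of the gene and outside any protein-coding gene. Its signals of 146, 93.5 and 83.4 stood at ranks 561, 906 and 986 in the thresholded lists, whereas no summit within 500 bp of a member stood in more than 1 of these lists.

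Few summits lay within the genes themselves. The spans of the members, 528 kb in all, held 1, 0 and 0 thresholded summits in replicates 1, 2 and 3, the single one being that of Obp28a. These were 1.9, 0 and 0 per Mb, beside 22.5, 19.9 and 19.0 per Mb over the spans of all protein-coding genes. In 36 arrays of neighbours of the same family less than 10 kb apart stood 110 of the members, the largest being Gr64a to Gr64f, Ir7b to Ir7g and Obp56a to Obp56f, with 6 genes each. The gaps inside these arrays, 72.8 kb, held 2, 0 and 2 summits. These were 27.5, 0 and 27.5 per Mb, beside 26, 23.2 and 21.8 per Mb over the main arms. Counts this small set neither the gaps apart from the arms nor the replicates apart from each other. One pair, in replicates 1 and 3, lay in the Gr93 array, 5006 and 5016 bp downstream of the Gr93a start. The other pair lay 30 and 1 bp upstream of the start of Brca2, a DNA repair gene that sits inside the Ir60 array.

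Chemosensory genes had fewer annotated starts and fewer near neighbours than genes in general. Of the 230, 209 (90.9%) had 1 annotated start, beside 73.5% of all genes, and 200 (87%) had no other gene's start within 500 bp, beside 69.1%. Both held for 183 members (79.6%) and for 52.7% of all genes. Among all genes with both, 3.85% were bound in all 3 replicates and 15.2% had a ranked summit in all 3. Among the 183 members the counts were 0 (3-count limit 1.64%) and 5 (2.73%, interval 0.893% to 6.26%). In at least 1 replicate, 8.36% of such genes and 1 of the 183 members (0.546%) were bound. The comparison with genes of like setting was chosen after seeing the data, and the part that promoter setting plays in the difference was not tested.

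Another gene's start lay within 500 bp for 30 members, for 15 of them only that of another member. Of all genes with another start so near, 22.7% were bound in all 3 replicates and 36.3% in at least 1. Of these 30 members 0 were bound in any (3-count limit 10%). The other 15 members made 16 pairs with a neighbour outside the families, 15 of them divergent, such as Gr61a with JMJD5 (91 bp between starts), Gr63a with Lamtor4 (297 bp) and Or49b with Cyp9h1 (107 bp). None of these neighbours was bound in all 3 replicates. The neighbours bound in fewer were p53, the tumour suppressor homologue beside Gr94a, in 2 replicates, and Letm1, a mitochondrial ion exchanger beside Ir60b, in 1. The p53 summits, in replicates 1 and 2, lay 55 and 51 bp upstream of another p53 start. That was 2448 and 2444 bp from the Gr94a start, so the p53 start near Gr94a was not the bound one.

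Within 500 bp of a start, at least 1 CAACAA stood at most of these genes, though below its share over all genes. The tandem repeat CAACAACAA was rare at them. CAACAA, on either strand, stood within 500 bp of a start for 140 of 230 members (60.9%, interval 54.2% to 67.2%), beside 68.8% of all genes. Of all genes with it 12.9% were bound in all 3 replicates, and of the 140 members 0 were. In the narrower window from 250 bp before to 50 bp after the canonical start it stood at 57 members (24.8%, interval 19.3% to 30.9%). That interval includes the 27.9% of all genes. The families differed there, with 11.9% of Or, 18.3% of Ir, 36.7% of Gr and 33.3% of Obp genes. Within 500 bp the longer CAACAACAA stood at 5 members (2.17%), namely Gr28b, Gr47b, Ir25a, Ir62a and Obp99a, beside 11.8% of all genes. Base composition differed little, with a median of 42.2% G and C within 500 bp of members' starts and 42.5% over all genes.

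A pair of other promoter words was counted in the same way. In the window from 250 bp before to 50 bp after the canonical start, TATAAA on either strand stood at 135 members (58.7%, interval 52% to 65.1%), beside 45.3% of all genes. It was frequent at Or (78%) and Obp (72.5%) and less so at Gr (31.7%), and the Cpr genes also had it often (74.3%). The DNA replication element TATCGATA, known from promoters of broadly active genes, stood at 1 member, Gr68a (0.435%, interval 0.011% to 2.4%), beside 8.94% of all genes and 1 of 70 Cpr genes (1.43%). Of all genes with TATCGATA 15.2% were bound in all 3 replicates, and of those with TATAAA 11.6%.

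The CTCF core was searched in 4 forms on either strand, AGATGGCGC, AGAGGGCGC, AGGTGGCGC and AGGGGGCGC, in stretches of 151 bases. It stood at 2.61%, 1.97% and 2.15% of thresholded summits in replicates 1, 2 and 3 and at 0.394% of all canonical starts. Of the 230 canonical starts of members 0 had it. The 3-count limit is 1.3%, above the share of all starts, so the 0 does not set members apart. The palindrome-bearing word ATGGCGCCA stood at 0.688%, 0.612% and 0.65% of the summits, at 0.129% of all starts and at 1 member start, that of Ir7f. The Obp99b summit was 204 bp from its start and so outside these start windows. Whether either word bears on the signal there was not tested.

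The 4 thresholded lists that the authors deposited for the series as a whole, whose replicates are not named in the sources used here, were longer, at 4971, 4566, 4375 and 4533 peaks. In each of them 3 members were bound, beside 20.2%, 18.8%, 18.3% and 19.3% of all genes. Obp99b and Ir67c were bound in all 4, with summits 200 and 347 bp upstream and signals of 164 and 93.8. The third gene was Ir60b in the first and second lists, Gr21a in the third and Ir60e in the fourth. All 5 were among the 7 members with an IDR of 0.05 or less in 1 replicate, and the summits of Ir60b and Ir60e again lay within 6 bp of the starts of Letm1 and CG13585.

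Genes that work with the receptors were described from lists chosen with earlier results of these data known. Of 35 other olfactory and taste genes, among them Orco, lush, Snmp1 and the CheA and CheB families, 0 were bound in any replicate, beside 19.8% of all genes in at least 1 and 11.3% in all 3. Of 19 genes for arrestins, G proteins and odour transduction, 0 were bound in all 3 replicates, too few genes to tell this from the 11.3% of all genes. Bound in at least 1 were 3 of the 19, beside 19.8% of all genes. Galphao, a G protein alpha subunit, was bound in replicates 2 and 3, and the phospholipases norpA and Plc21C were bound in replicate 1. Of 32 matched genes for transcription factors of chemosensory neurons, 1 (3.12%, interval 0.0791% to 16.2%) was bound in all 3, and the interval includes the 11.3% of all genes. This was Xbp1, a factor of the unfolded protein response, with summits 81, 85 and 137 bp upstream of a start at ranks 487, 872 and 702. Bound in fewer replicates were bab2 and mip130 (replicates 1 and 3) and scrt (replicate 1), and the summit at mip130 was nearer to the start of Edem1. A ranked summit in all 3 replicates was present for 12 of these 32, for 7 of the 19 and for 1 of the 35, beside 30.4% of all genes, and the first and second of these counts are near that background.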

How the data were processed

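Chromatin immunoprecipitation of Aef1-eGFP was measured in 3 biological replicates of 1 group. Not given in the sources used here is which aligner and peak caller the authors ran. The deposited thresholded lists hold a score from 830 to 1000, equal to 125 times the negative log2 of the IDR and capped at 1000, which the authors' lists carry down to an IDR of about 0.01. The deposited ranked lists give the IDR of each peak as −log10. The signal in the deposited lists is the authors' value on an unstated scale, and was used only to describe or rank peaks within a list. The authors' summit offsets (other values in the deposited lists) are bases from the peak start.

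Gene models were Ensembl release 115 protein-coding genes on BDGP6.54 (dm6 coordinates), with 19607 distinct starts on arms 2L, 2R, 3L, 3R, 4 and X, and positions are 1-based. A summit within 500 bp of a start counted for every gene with a start there. Offsets are from the nearest start, and canonical starts were used for promoter words and distance bins. Counting was tested on simulated data. No p-value was computed. Scripts ran in Python 3.11.15 with pandas 2.3.3 and numpy 2.4.6, intervals came from SciPy 1.17.1 and plots from matplotlib 3.10.9.

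The members and lists were chosen with earlier results of these data known. Named were members with a thresholded summit in any replicate, up to 10 more with the lowest mean rank among those with a ranked summit in all 3 replicates, well-known members by role, genes sharing a bound window and bound genes of the related lists (86 of 87 names matched). Other names were chosen after their values were seen. Alternatives were windows of 250 and 1000 bp, canonical or nearest starts, peak overlap of at least 1 bp, IDR limits of 0.05 and 0.001, equal list lengths (the strongest 29000 peaks), the lists of the whole series, and leaving out each replicate.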

Additional observations from a re-analysis of the deposited data

How the results depend on the processing

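The count of members bound in all 3 replicates stayed at 0 with windows of 250 bp, canonical or nearest starts only, peak overlap, IDR limits of 0.05 and 0.001 on the ranked lists, and leaving out each replicate (0 to 0). It was 1 with windows of 1000 bp, where Or88a entered (13.3% of all genes), and 3 in each of the 4 lists of the whole series (18.3% to 20.2%). In replicate 1 the count of 2 became 1 with windows of 250 bp (Obp99b, 13.2% of all genes), 4 with 1000 bp (19.4%), 4 at an IDR of 0.05 (19.9%) and 3 with peak overlap (17.7%, Ir60b added). In replicate 2 the count of 0 became 2 with 1000 bp (17.5%), 1 with peak overlap (Gr32a, 15.9%) and 1 at an IDR of 0.05 (17.5%). In replicate 3 it became 3 with 1000 bp (17.1%) and 2 at an IDR of 0.05 (17.7%). Members with a ranked summit in all 3 replicates, 10 in number (30.4% of all genes), became 4 with 250 bp (21.3%), 29 with 1000 bp (40.9%), 15 with peak overlap (34%), 7 with the strongest 29000 peaks of each list (27.1%), 9 with canonical starts (26.3%), 10 with nearest starts (22.6%), and 21 to 27 with a replicate left out (34.5% to 37.2%). The 140 members with CAACAA became 84 within 250 bp (47.9% of all genes), 57 in the window from 250 bp before to 50 bp after the start (27.9%, chosen after seeing the data), and 5 with CAACAACAA (11.8%). The windows of other lengths hold fewer or more bases by construction. No paired analysis was possible because the replicates form 1 group. The lists give no depth, so a site below the authors' limits was not detectable here, not absent.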
